A study of Mus musculus with 2 samples.

Results

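Binding of REV-ERBα was examined in windows named for Irf4 and Batf, 2 genes that encode partner transcription factors of T helper 17 (Th17) cells. The members are the REV-ERBα peaks whose midpoints lie in either of 2 windows of the mm9 mouse genome. The Irf4 window, laid out to take in Irf4 and its upstream flank, runs from 30780000 to 30880000 on chromosome 13. The Batf window runs from 86990000 to 87080000 on chromosome 12. They hold 9 of the 8884 listed peaks, 7 in the Irf4 window and 2 in the Batf window, so neither window is without a peak. That the windows hold these genes in mm9 was not checked, and "at Irf4" and "at Batf" below mean inside the windows. The windows were chosen by the positions and tag counts of these peaks in the list. Their number, spacing and tag counts are therefore given as a description, with no test.

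The data come from wild-type primary mouse Th17 cells, CD4 T cells that secrete interleukin-17, grown in culture. Chromatin immunoprecipitation with an antibody against REV-ERBα was followed by sequencing (ChIP-seq) in 1 sample, and input DNA of such cells was sequenced in 1 further sample. The sources used here do not give the strain, age, sex or number of animals, or the time of day of collection. The ChIP library had 6390234 tags (mapped reads), and the authors' peak list was the only file used. With 1 ChIP sample no value has a replicate check, and every interval covers counting error only. The list holds no expression values, so the labelled cell type could not be checked against markers. The control was input DNA, and the specificity of the antibody at these sites was not tested.

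REV-ERBα, the product of Nr1d1, is a clock-controlled nuclear receptor that acts as a repressor through the corepressor NCoR and histone deacetylase. It binds a response element, the RORE, which it shares with the activating ROR receptors, among them RORγt, the factor that defines the Th17 lineage. IRF4 is an interferon regulatory factor induced by antigen receptor signalling, and it binds DNA weakly on its own. BATF is a basic leucine zipper protein of the AP-1 family that pairs with JUN proteins. IRF4 joins the BATF-JUN pair at composite elements, and both factors are required for Th17 differentiation, where they act ahead of RORγt.

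The promoters of the genes are shown because these are the sequences a reader would look at first for a receptor element. Each is the stretch of 250 bases before the transcription start, from RefSeq in the later build GRCm38.p6; both genes lie on the + strand there and each has 1 start in the table. Capitals mark GGTCA on either strand, the core of the REV-ERBα element. The Irf4 stretch is chr13:30748983-30749232 and the Batf stretch is chr12:85686470-85686719, both in GRCm38.p6 and not comparable with the mm9 positions of the peaks.
Irf4 promoter: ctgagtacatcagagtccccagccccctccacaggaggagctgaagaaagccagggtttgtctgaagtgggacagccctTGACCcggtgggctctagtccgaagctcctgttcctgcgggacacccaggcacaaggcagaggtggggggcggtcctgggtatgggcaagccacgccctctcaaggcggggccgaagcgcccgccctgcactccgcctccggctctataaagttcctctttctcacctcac
Batf promoter: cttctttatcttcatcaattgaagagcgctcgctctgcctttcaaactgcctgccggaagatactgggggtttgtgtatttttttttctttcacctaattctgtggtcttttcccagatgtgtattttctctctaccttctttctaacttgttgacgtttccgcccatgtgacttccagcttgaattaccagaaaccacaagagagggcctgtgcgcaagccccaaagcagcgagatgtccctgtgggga

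The Irf4 stretch held GGTCA once, on the reverse strand, beginning 171 bases before the start, and the Batf stretch held none. GGTCA was present on either strand in 35.2% of 32851 such stretches. The longer element AGGTCA, which contains GGTCA, was in neither stretch and in 14.0% of all. The pattern searched as the RORE was in neither and in 109 (0.332%) of all. Elements that depart from these patterns, or lie outside the 250 bases, were not looked for. G and C made up 63.6% of the Irf4 stretch and 46.4% of the Batf stretch, against a median of 52.4% over all. The mm9 positions of the genes and the mm9 sequence were not used here. The peaks are therefore not placed at promoters, exons or introns, or upstream or downstream of a gene. In RefSeq, Irf4 lies between the protein-coding genes Dusp22, which precedes it, and Exoc2, which follows it. Batf lies between Jdp2, which like the next gene Fos encodes a leucine zipper protein of the AP-1 group, and Flvcr2.

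At Irf4, REV-ERBα peaks formed a run of moderate sites rather than 1 strong site. The 7 peaks held 10 to 27 tags each, with a median of 16, and 116 tags in all. The whole list had a median of 15 tags and quartiles of 12 and 20. In order of position the 7 peaks had 16, 10, 16, 21, 14, 12 and 27 ChIP tags, against 2.8, 1.9, 0.9, 4.7, 0.9, 0.5 and 3.8 input tags scaled to the depth of the ChIP library. ChIP tags exceeded scaled input tags at each of the 7, as the authors' filter of 4-fold over input requires. At or above the median of the list were 4 of the 7 Irf4 peaks and 1 of the 2 Batf peaks, where 51.3% of all listed peaks are.

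**Figure D1:**
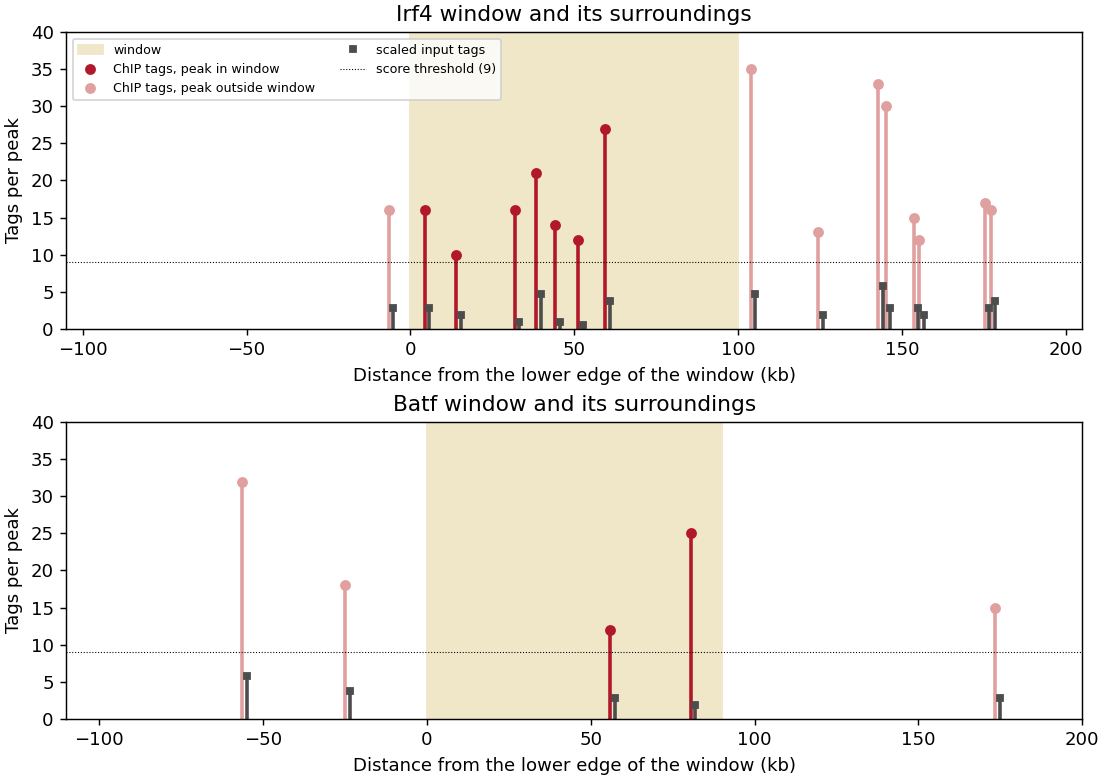
Tags per peak (vertical axis) against the distance from the lower edge of each window in kb, for the Irf4 window (top) and the Batf window (bottom) with the peaks up to 150 kb from its centre; red, ChIP tags (pale outside the shaded window), grey, scaled input tags, dotted line, the caller's score threshold of 9. The 7 Irf4 peaks hold 10 to 27 tags and stop 40.1 kb before the upper edge, and the peak with 35 tags lies just outside that edge.

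The peak with the most tags in the Irf4 window was the last one by position, at 30839778 to 30840084. It held 27 ChIP tags (95% Poisson interval 17.8 to 39.3), and 8.99% of the listed peaks held more. Its score, the height that the caller gave to the peak with at most 1 tag per bp considered, was 20, where the caller's threshold was 9 and the median of the list 13. It was 7.14-fold over input (95% interval 2.49 to 28.1). It is the nearest of the 7 to the peak-free upper part of the window.

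The next by tags, at 30818774 to 30819080, held 21 ChIP tags (interval 13 to 32.1) and had a score of 18. Its input was the highest of the 7, at 4.7 scaled tags, and its fold over input of 4.44 (interval 1.63 to 15.1) was the lowest. Of all listed peaks, 96.2% had a higher fold over input. This site was thus among the stronger of the window by tags and close to the authors' limit by enrichment.

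Of the Irf4 peaks, 2 had 16 tags each (interval 9.15 to 26.0) and differed in score and input. The first peak of the window, at 30784710 to 30785016, had a score of 11, 2.8 scaled input tags and a fold of 5.64. The third, at 30812148 to 30812454, had a score of 14, 0.9 scaled input tags and a fold of 16.9. That higher fold rests on 1 input tag, and its interval runs from 2.63 to 709.8. The interval of the first peak, 1.61 to 30.2, overlaps it widely, and a difference between the 2 folds was not tested.

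The other 3 Irf4 peaks lay below the median of the list in tags. The peak at 30824581 to 30824887 held 14 tags, with a score of 13 and 0.9 scaled input tags. The peak at 30831563 to 30831869 held 12 tags, with a score of 10. Its input was listed at the lowest value, 0.5, which stands for no input tag, so the listed fold of 25.4 follows from that value. With 3 input counts, taken as the limit that a count of 0 allows, the 12 tags would be 4.23-fold over input. That value treats the ChIP count as exact. The binomial interval of the fold, which also covers error in the ChIP count, had a lower end of 2.94. The weakest, at 30794318 to 30794624, held 10 tags (interval 4.80 to 18.4) with a score of 10, and 89.4% of the listed peaks held more tags. Its upper bound lay slightly above the lower bound of the strongest Irf4 peak, 17.8. Overlap of 2 such intervals does not settle whether the counts differ, and the order of the 7 by tags was not tested.

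Both Batf peaks lay in the upper part of their window, a weak one and a stronger one. The peak at 87046361 to 87046667 held 12 ChIP tags (interval 6.20 to 21.0), with a score of 11 and 2.8 scaled input tags. It was 4.23-fold over input (interval 1.14 to 23.4) and 4.13-fold over the surrounding 10000 bp, where 4-fold was required for both. Of all listed peaks, 96.5% had a higher fold over input and 99.0% a higher fold over the local region, so this site passed the authors' filters by little.

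The other Batf peak, at 87070851 to 87071157, held 25 tags (interval 16.2 to 36.9), with a score of 20 and 1.9 scaled input tags. Its tag interval overlaps that of the first Batf peak, and so does the interval of its fold over input, 13.2 (3.30 to 115). Differences between the 2 Batf peaks were not tested. Over its local region the peak was 20.8-fold, and 1.46% of listed peaks had a higher local fold. That local fold was higher than at any Irf4 peak, where local folds ran from 6.07 to 8.42 with a median of 6.79. The local folds carry no interval here, and the difference was not tested. The median local fold of the whole list was 7.78. At least 8-fold over the local region was listed for 2 of the 7 Irf4 peaks and 1 of the 2 Batf peaks, against 47.5% of the list.

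**Figure D2:**
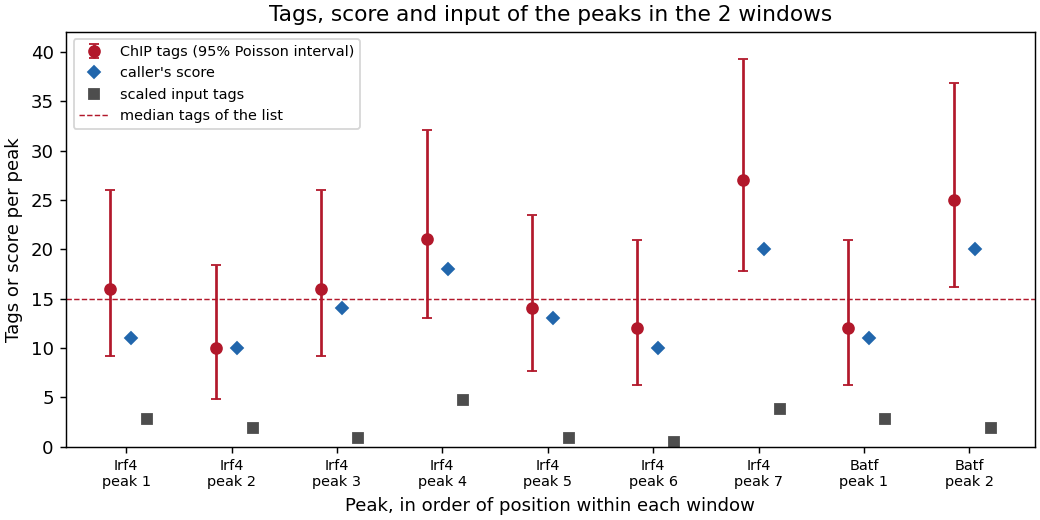
ChIP tags with 95% Poisson intervals (red circles), the caller's score (blue diamonds) and scaled input tags (grey squares) for the 7 Irf4 and 2 Batf peaks in order of position; the dashed line is the list's median of 15 tags. Scaled input tags stay at or below 4.7 in all 9, and the highest ChIP values are 27 tags at Irf4 and 25 at Batf.

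Few input tags stood behind each fold over input, 0 to 5 at Irf4 and 2 or 3 at Batf. At least 8-fold enrichment was listed for 3 of the 7 Irf4 peaks and 1 of the 2 Batf peaks, against 61.5% of all listed peaks. At least 16-fold was listed for 2 Irf4 peaks and no Batf peak, against 28.1%. Input was at its lowest value in 1 of the 9 peaks, against 16.8%. The median listed fold was 7.14 at Irf4, against 10.6 in the list. These shares of 7 and 2 peaks are too small to set the loci apart from the list.

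Summed over the peaks of each window, more input tags stand behind the ratio. At Irf4, 116 ChIP tags stood against 16 input tags, which amount to 15.1 scaled tags, a pooled fold of 7.67 (95% interval 4.53 to 13.9). At Batf, 37 ChIP tags stood against 5 input tags, or 4.73 scaled tags, a pooled fold of 7.83 (3.07 to 25.5). These ratios describe listed peaks and not the windows as a whole. Each peak had to reach 4-fold over input to be listed, so an interval above 1 was fixed by that filter and is no evidence of enrichment. The lower ends of the intervals of the 9 single peaks lay between 1.13 and 3.30.

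The score was at or below the tag count at both loci. The ratio of score to tags ran from 0.688 to 1 over the 7 Irf4 peaks, with a median of 0.857, and from 0.800 to 0.917 over the 2 Batf peaks, against a median of 0.88 in the list. The Irf4 peak with the most tags had a ratio of 0.741, with a score of 20 for 27 tags. The lowest ratio belonged to the first Irf4 peak, with a score of 11 for 16 tags. The same peak had the highest clonal fold of the 9, the authors' measure of repeated tag positions, at 1.27, where the median of the list was 0.98.

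The Irf4 peaks lay close together and the Batf peaks did not. From the first to the last of the Irf4 midpoints was 55.1 kb, and the gaps between neighbours were 9.61, 17.8, 6.63, 5.81, 6.98 and 8.21 kb. The 2 Batf midpoints were 24.5 kb apart. Another midpoint within 10 kb was found for all 7 Irf4 peaks and neither Batf peak, against 33.7% of the listed peaks. In the whole list the median distance to the nearest peak was 20.3 kb.

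With neighbours joined where midpoints are at most 10 kb apart, the Irf4 peaks fall into a pair and a chain of 5. The pair, from 30784710 to 30794624, held 26 tags. The chain, from 30812148 to 30840084, held 90 tags, 77.6% of the tags in the Irf4 peaks, over 27.9 kb. Chains of at least 5 peaks number 11 in the whole list and hold 58 peaks, 0.653% of the list. The Irf4 chain is 1 of 2 such chains on chromosome 13, and no Batf peak belongs to one.

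Against the other 10 chains of at least 5 peaks, the Irf4 chain was long and evenly spaced and held fewer tags than most. Its midpoints spanned 27.6 kb, where the other 10 spanned 16.8 to 28.9 kb with a median of 22.3 kb. It held 90 tags, where the others held 72 to 220 with a median of 112.5. Its 4 gaps averaged 6.91 ± 1.0 kb (SD), a coefficient of variation of 0.145, which was the lowest of the 11; the others ran from 0.333 to 0.719. Its smallest gap, 5.81 kb, was the widest smallest gap of the 11, the others running from 0.702 to 4.23 kb. Its pooled fold over input was 8.66, inside the range of the others, 6.92 to 13.3. Among the other 10, 1 chain on chromosome 5 has 8 peaks and gave the 220 tags, the 28.9 kb and the 0.702 kb. The rest have 5 peaks each, with at most 131 tags and spans of at most 26.3 kb. The evenness was noticed after the values were seen and carries no test. It also rests on the 10 kb limit, since all gaps between Irf4 peaks of the window run from 5.81 to 17.8 kb. With limits of 5 or 20 kb there is no such chain of 5.

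**Figure D3:**
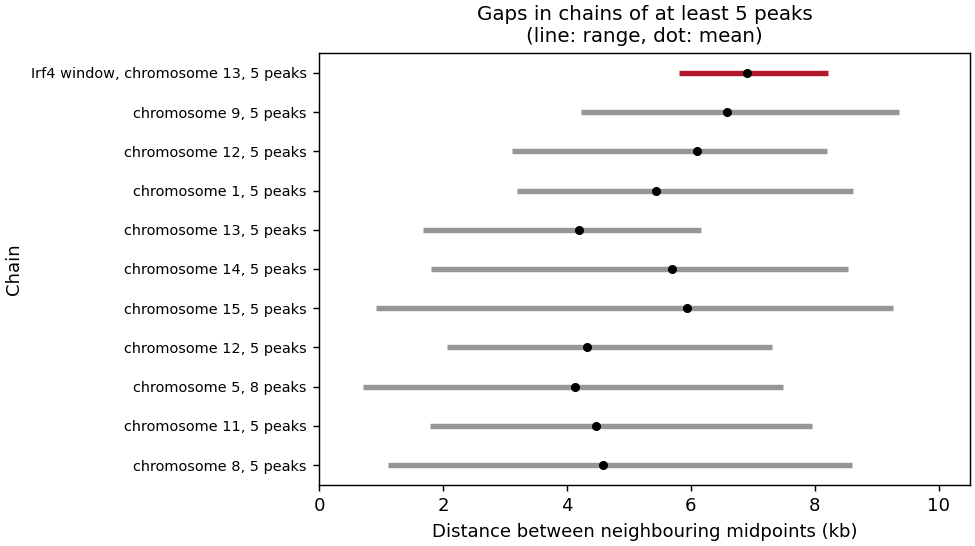
Distance between neighbouring midpoints in kb (horizontal axis) for each of the 11 chains of at least 5 peaks, ordered from the most even gaps (top) to the least; lines run from the smallest to the largest gap and dots mark the mean. The Irf4 chain (red) runs from 5.81 to 8.21 kb and is the narrowest range shown.

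Parts of both windows held no listed peak. In bins of 10 kb, 5 of 10 held a peak in the Irf4 window and 2 of 9 in the Batf window, with at most 2 peaks in a bin at Irf4 and 1 at Batf. After the last Irf4 peak no peak was listed for the 40.1 kb to the end of the window. Before the first Batf peak none was listed for the 56.5 kb from the start of the window. A site with few tags stays under the threshold, so these stretches are not shown to be unbound.

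The edges of the windows matter at Irf4. Just inside, the first peak lies 4.86 kb from the lower edge with 16 tags. Just outside, a peak at 30773715 to 30774021, also with 16 tags, lies 6.13 kb below the lower edge and 11 kb from the first member; its local fold of 14.5 was higher than that of any Irf4 member. Above the upper edge by 4.35 kb lies a peak at 30884201 to 30884507 with 35 tags (interval 24.4 to 48.7) and a score of 31, more tags than any member. At Batf the nearest peaks outside were farther off, at 24.4 kb below the window with 18 tags and 83.8 kb above it with 15 tags.

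In number of peaks, the Irf4 window was at the dense end of the list. The Batf window was less so, but held more peaks than most tiles of its length. The Irf4 window held 7 peaks per 100 kb (95% Poisson interval 2.81 to 14.4) and the Batf window 2.22 (0.269 to 8.03). The intervals overlap, but they assume independent peaks and windows placed without regard to peaks. The windows were not so placed, and the difference between the 2 densities was not tested. Over 25416 tiles of 100 kb, laid end to end from the first to the last peak of each chromosome, the mean was 0.350 peaks, and 33 tiles (0.130%) held at least 7. Over 28240 tiles of 90 kb, the mean was 0.315 peaks, and 2160 (7.65%) held at least 2. Those 2160 are 42.2% of the tiles with any peak. Both windows were placed with their peaks known, whereas tiles have fixed edges. The fixed 100 kb tiles that cover the Irf4 window held 3 and 6 peaks, and 3.95% and 0.370% of tiles held at least as many. Each includes 1 peak outside the window (that of 16 tags below it and that of 35 tags above it). The fixed 100 kb tiles that cover the Batf window held 2 peaks each, and 8.67% of tiles held at least as many. In the lower of these tiles both peaks lie outside the window.

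**Figure D4:**
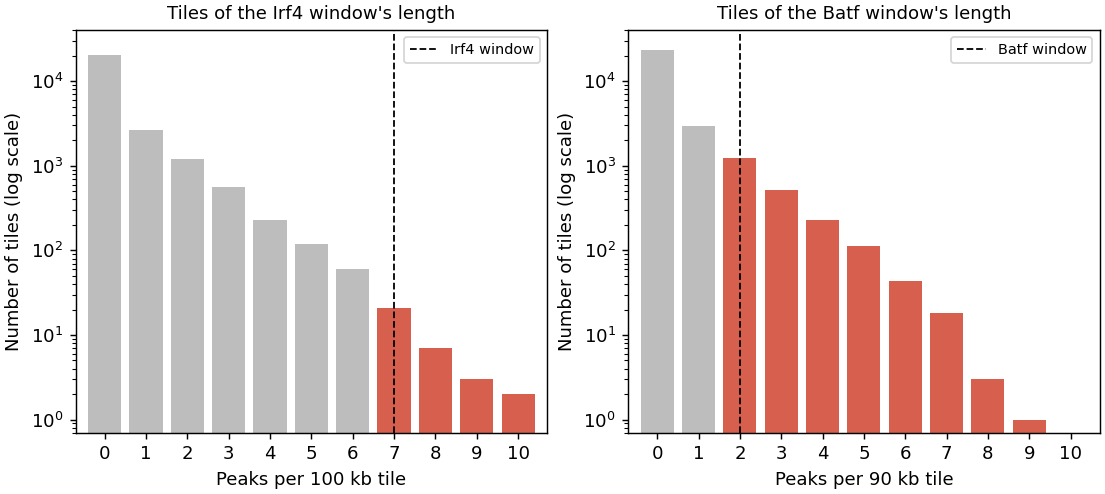
Number of tiles (vertical axis, log scale) by peaks per tile for tiles of 100 kb (left) and 90 kb (right) over the whole list; the dashed line marks the count in the Irf4 window (7) and in the Batf window (2), and tiles with at least as many are red. At least 7 peaks are found in 33 of 25416 tiles and at least 2 in 2160 of 28240.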

How the data were processed

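ChIP-seq of REV-ERBα in cultured mouse Th17 cells (1 ChIP and 1 input sample) was used as the peak list of the ChIP sample. Per the submitters' processing notes, CASAVA 1.8.2, Bowtie and HOMER were used with mm9. Per the file headers, HOMER findPeaks called the peaks of the ChIP against the input library: fragment length and peak size 306 bp, false discovery rate 0.001, and at least 4-fold with a Poisson p of 1e-04 over input and over 10000 bp of surroundings. Total tags are deposited counts. The normalized tag count is a deposited signal, scaled to 10000000 tags, and the input tags a signal that the authors scaled to the ChIP depth. Folds are the authors' ratios, the p-values are their Poisson values and the score is the authors' peak height; none was tested again.

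Input tags per peak were recovered as tags over listed fold, in steps of 0.945 scaled tags (1 input tag). The 7392 peaks above the lowest value fell on multiples of it with a relative error of at most 0.0012, and 1492 at the lowest value were taken as 0. Tag and peak counts carry exact Poisson intervals and folds exact binomial intervals (95%), which cover counting error only. Reads are not independent molecules. Python 3.11.15, numpy 2.4.6, pandas 2.3.3, scipy 1.17.1 and matplotlib 3.10.9 were used, and chains, tiles and intervals were tested on simulated data. Every peak of the windows is described, and of other genes only neighbours are named. The windows, members and measures were chosen with earlier results of these data known. Counts of peaks near other genes of the BATF and IRF4 pathway, planned for an mm9 annotation, were not made here.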

Additional observations from a re-analysis of the deposited data

How the results depend on the processing

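Of 22 alternatives over 8 results, 14 stayed within the limits (1.5 times for a count, the 95% interval for a share or fold) and 8 moved. With at least 8-fold over input, 3 Irf4 peaks and 1 Batf peak were left, and with tags at or above the list's median 4 and 1. Windows narrowed by 20 kb on each side held 5 and 1 peaks; widened, they held 9 and 2. The chain of 5 at Irf4 depends on the linking distance: with 5 kb no Irf4 peak had a neighbour and the largest chain was 1, and with 20 kb all 7 joined the peak below the window in a chain of 8. Among autosomes only, 8.07% of 90 kb tiles held at least 2 peaks. These follow from fewer peaks, other limits or fewer tiles. The share of 100 kb tiles with at least 7 peaks ran from 0.130% to 0.165%. With peaks at the lowest input value left out, the pooled fold over input at Irf4 was 6.88 in place of 7.67. At Batf no peak had that value, and the pooled fold over input stayed at 7.83. Taken over the local region instead of input, the pooled folds were 6.975 at Irf4 and 9.01 at Batf. No paired analysis was possible because there is 1 ChIP sample, and none could be left out. At 6390234 tags and a threshold of 9, weaker sites are not seen.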

Other observations

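Peaks were also listed around both windows, and how far the windows differ depends on the distance taken. Within 150 kb of the centre of the Irf4 window lay 16 peaks with 303 tags, of which 9 were outside the window, and within 150 kb of the centre of the Batf window lay 5 peaks with 102 tags. Within 250 kb there were 24 and 8 peaks, and within 500 kb 25 and 16 peaks with 463 and 310 tags, the strongest holding 35 tags around the Irf4 window and 37 around the Batf window. Of the 9 within 150 kb and outside the Irf4 window, 8 lay above its upper edge. They include peaks of 35, 33 and 30 tags, each above the 27 tags of the strongest Irf4 member. The last of these lie at 30923156 to 30923462, with 33 tags and 5.7 scaled input tags, and at 30925379 to 30925685, with 30 tags and 2.8 scaled input tags. Between the peak at 30659207 and the one at 30773715, 114.5 kb on the lower side of the Irf4 window had no listed peak. Which gene these peaks belong to was not tested.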
